A study of Rattus norvegicus with 43 samples.

Results

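Messenger RNA of the genes for splicing factors and heterogeneous nuclear ribonucleoproteins (hnRNPs) was described in rat liver and in rat primary hepatocytes (RPH). Members were taken as the genes whose symbol begins with Srsf, Hnrnp, Snrp, Sf3a, Sf3b, Prpf or U2af and which have a probe set listing that gene alone. There were 61 such genes among 14217 on the array, and 59 of them passed the filter on low signals and were among the 10643 genes tested. They fell into 6 classes, with 3 members for U2 auxiliary factor, 9 for SF3a and SF3b subunits, 10 for Sm and other small nuclear ribonucleoprotein (snRNP) proteins, 11 for Prpf factors, 11 for SR proteins and 17 for hnRNP proteins. Srsf3, an SR protein, and Snrpn, a relative of the Sm protein SmB, were not tested. The Srsf3 probe set that lists only that gene, the other ones listing several, had mean signals between 41.4 at 4 h and 83.1 at 0 h, and that of Snrpn between 34.8 at 24 h and 77.2 at 48 h. Hnrnpk, Snrpc and Snrpg were left out because their probe sets list several genes.

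Splicing removes introns from precursor messenger RNA. The U1 snRNP recognises the start of an intron, U2 auxiliary factor binds its end, the SF3a and SF3b complexes hold the U2 snRNP on the branch point, and the tri-snRNP with its Prpf proteins then forms the catalytic centre. SR proteins mostly promote the use of exons, many hnRNP proteins oppose it, and several genes of both families limit their own messenger RNA through exons that carry a premature stop codon. In the liver, splicing regulators are known to shape the transcripts of metabolic genes as hepatocytes mature.

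Male Sprague Dawley rats, 3 in number, were the source of all 5 groups, with 1 sample per rat in every group. Untreated liver was a lobe ligated ahead of the perfusion, and RPH 0 h was the pellet of isolated cells. RPH 4 h, 24 h and 48 h were cultures of these cells, which had serum at 10% only up to the 4 h point. Hormones (insulin and dexamethasone), transferrin, the antibiotic gentamicin and glutamate were present at all 3 times in William's E, a medium made for hepatocytes. The 43 arrays gave MAS5 signals on a linear scale, and technical arrays were averaged on the log2 scale, so that n = 3 rats per group throughout. All rats had been injected with the barbiturate sodium pentobarbital before they were killed, a treatment that every group shares. No test compound was added in any group, and no age of the rats is stated.

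The median signal of an array lay between 108 and 145 in liver and between 79.7 and 116 in RPH. The technical arrays of 1 sample had a median SD of 0.16 (log2) for the members, and the 3 rats of a group 0.22. The livers, labelled as tissue, held high signals of 9 hepatocyte markers, which summed to between 247641 and 265054. Over the same markers the sum was between 127988 and 150744 at 48 h. Summed signals of 9 Kupffer cell markers went from 18981 to 26280 in liver down to between 4240 and 5087 at 48 h, and those of 8 endothelial markers from at least 11074 down to at most 640. The 3′ to 5′ signal ratio of actin, a sign of RNA integrity, was between 3.21 and 6.96 in liver, between 3.16 and 4.30 at 0 h, between 2.85 and 3.12 at 4 h and between 1.95 and 2.50 later. From 0 h to 4 h, summed signals of 5 cholangiocyte markers went from between 974 and 1112 to between 1936 and 3159, with 2 of the 3 tested higher. The third tested was at -0.81 (log2) and did not pass, and Krt7 and Cldn7 had mean signals under 32 at both times. Over the same step 16.3% of all genes tested rose and 22.7% fell. Of 8 endothelial markers 5 fell, and of 10 stellate cell markers 6 fell and 1 rose. The endothelial sum went from at least 6581 to at most 4156. These measures moved with the groups, and their part in the changes given here was not tested. The livers of rats 1 and 2 deviated from their group less like the RPH of their own rat than of the other. The median r over all genes was -0.0036 and -0.059 with their own rat, and 0.20 and 0.086 with the other. Counts against liver are therefore also given without each of these livers, and the largest values without both. In samples of this kind, fewer cells of a type and less RNA per cell cannot be told apart.

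Promoter windows are shown for the members with the largest rises at 4 h, Prpf19 and U2af1, for the largest fall, Hnrnpm, and for Snrpf, whose rise lasted to 48 h. Each is the 120 bases before the annotated start in RefSeq, build GRCr8, 5′ to 3′ on the strand of the gene. Capitals mark, on either strand, the letters CCGGAAG (bound by ETS factors), the CCAAT box by its own letters, the E-box CACGTG, the letters TGACG (the core of the cAMP response element, CRE), the full CRE TGACGTCA, which contains that core on both strands, and the NRF1 motif. The windows are chr1:216966387-216966506 on the plus strand for Prpf19, chr20:9755095-9755214 on the minus strand for U2af1, chr7:30024163-30024282 on the minus strand for Snrpf and chr7:15178872-15178991 on the minus strand for Hnrnpm.
Prpf19: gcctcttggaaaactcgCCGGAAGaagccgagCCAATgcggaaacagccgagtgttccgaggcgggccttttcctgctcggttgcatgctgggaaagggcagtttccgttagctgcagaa
U2af1: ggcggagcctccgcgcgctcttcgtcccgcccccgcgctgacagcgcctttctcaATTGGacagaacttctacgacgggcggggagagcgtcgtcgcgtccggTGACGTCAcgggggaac
Snrpf: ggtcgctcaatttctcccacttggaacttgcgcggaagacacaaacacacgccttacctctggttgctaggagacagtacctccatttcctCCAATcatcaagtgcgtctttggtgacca
Hnrnpm: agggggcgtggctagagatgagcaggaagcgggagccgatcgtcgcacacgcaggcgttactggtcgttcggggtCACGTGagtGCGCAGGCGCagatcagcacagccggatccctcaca

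In the 250 bases before the start, promoters were found for 57 of the 61 members, and where RefSeq gives several starts the one with the lowest coordinate was used. Their median GC content was 58.4%, against 52.0% for all 27457 promoters and 60% for the 8894 of genes tested here. CCGGAAG occurred in 28.1% of the members' promoters, 7.78% of all promoters and 15.5% of those of genes tested. The NRF1 motif occurred in 21.1%, 4.17% and 9.23%, TGACG in 52.6%, 18.9% and 28.3%, and CCAAT in 49.1%, 34.2% and 36.0%. The GC box, GGGCGG, occurred in 57.9% of the members' promoters, 32.3% of all and 58.7% of those of genes tested, the TATA box, TATAAA, in 8.77%, 13.1% and 6.76%, and the E-box in 10.5%, 5.77% and 8.39%. The letters AAGATGGCG, bound by YY1, occurred in 0 of the 57, 0.721% of all and 1.34% of those of genes tested. Among the members with a promoter, CCGGAAG occurred in 6 of the 20 that rose at 4 h and 10 of the other 35 tested, and the NRF1 motif in 4 and 8. TGACG occurred in 8 and 21 of these, and TGACGTCA in the U2af1 promoter alone among the members and in 1.68% of all promoters. These are matches of letters and not measured binding sites.

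The first comparison, RPH 0 h against liver, covers the isolation of the cells. None of the 59 members passed the test (limma, Benjamini-Hochberg adjusted p under 0.05 over all genes, smallest adjusted p 0.284), 4 had an unadjusted p under 0.05, and each alternative setting also called 0. Of all genes tested, 0.141% rose and 0.432% fell. The log2 fold changes of the members lay between -0.54 and 0.43, with a median of 0.02 beside -0.08 for all genes. These values depended on the scaling. With arrays centred on the median, 22 members had an unadjusted p under 0.05 by limma. The medians were then 0.40 for the members and 0.30 for all genes.

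The main change came in the first hours of culture. At 4 h against 0 h, 22 of the 59 members rose and 2 fell, where 16.3% of all genes tested rose and 22.7% fell. The median log2 fold change of the members was 0.35, and that of all genes -0.15. The rises were 2 of 3 tested members of U2 auxiliary factor, 4 of 9 SF3 subunits, 5 of 9 Sm and other snRNP proteins, 2 of 11 Prpf factors, 3 of 10 SR proteins and 6 of 17 hnRNP proteins, and both falls were hnRNP genes. The 22 rises, and the 3 among SR proteins, include the dim probe set annotated to Srsf7-ps4, a pseudogene, whose assignment is uncertain. The highest group mean lay at 4 h for 25 of the 59 members, and at 4 h for 17.2% of all genes tested. Over the alternatives of processing and of samples left out, 10 of these 24 calls always passed, those of Prpf19, U2af1, Snrpf, Sf3b1, Srsf2, Hnrnpf, Hnrnpdl, Hnrnph1, Hnrnpab and Hnrnpm. How many of the calls over all genes always passed was not counted.

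**Figure D1:**
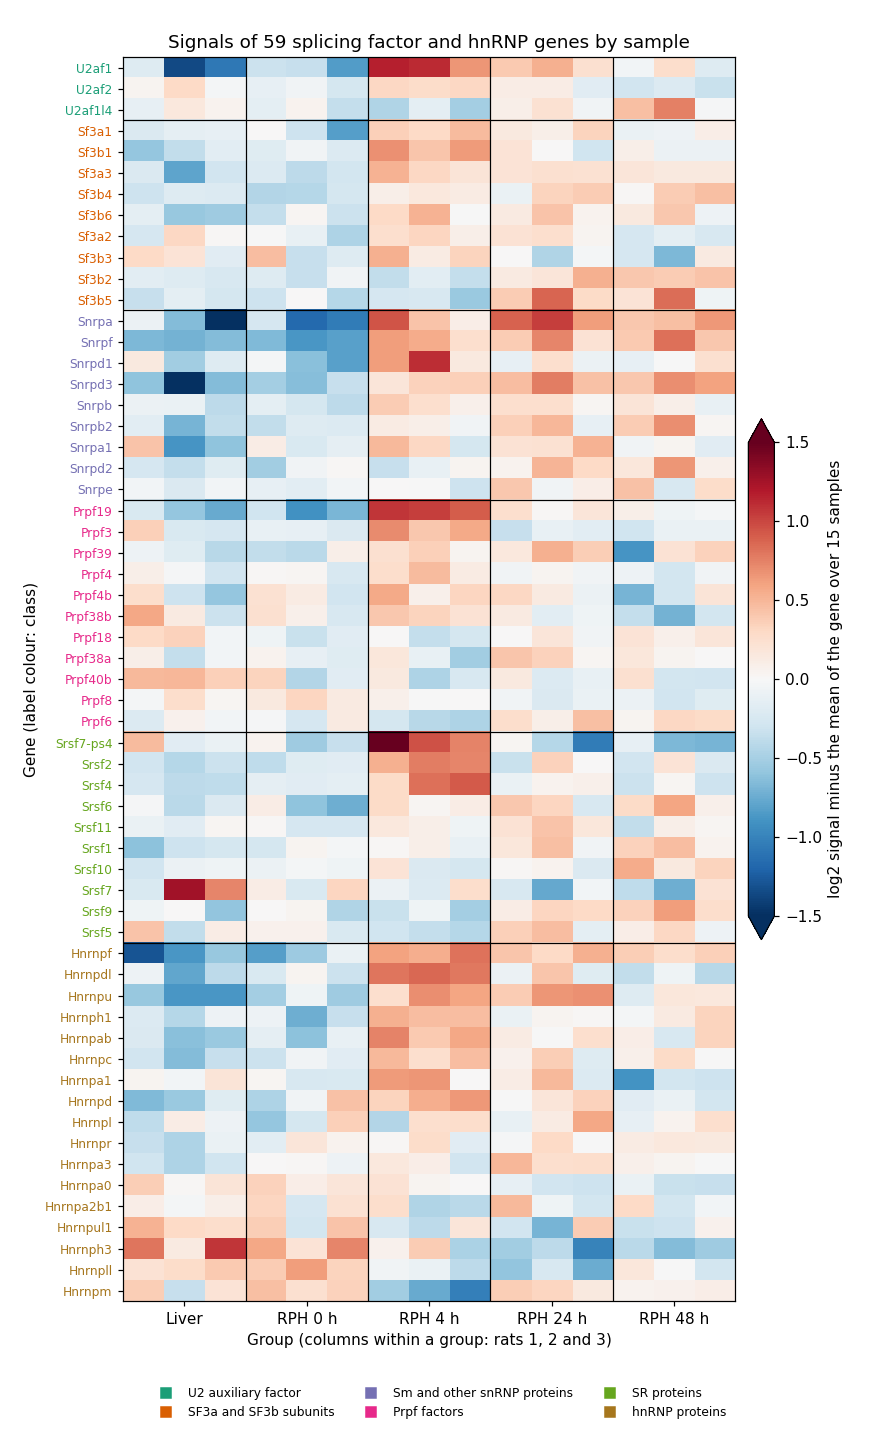
Signals of the 59 tested members in each of the 15 samples, as log2 signal minus the mean of the gene over all samples (colour scale, cut at -1.5 and 1.5), with rats 1, 2 and 3 side by side within each group and genes ordered by class and by their change at 4 h. The first gene of each class is lower at 0 h than at 4 h in every rat, and Hnrnpm, in the last line, is lowest at 4 h.

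U2 auxiliary factor reads the end of the intron through its small subunit, U2af1, which contacts the AG, and its large subunit, U2af2, which binds the pyrimidine tract. The U2af1 signal was 1425, 636 and 775 in the livers of rats 1, 2 and 3 and 1298, 1278 and 908 at 0 h. It was 3648, 3550 and 2585 at 4 h, 2132, 2364 and 1927 at 24 h, and 1588, 1949 and 1422 at 48 h. All 3 samples at 4 h lay above every other sample, and the rise over 0 h was 2.81-fold (log2 1.49, SE 0.27, adjusted p = 0.000752 by limma). U2af2 had signals of 2044, 2146 and 1849 at 0 h and of 2751, 2685 and 2743 at 4 h, a rise of 1.36-fold (log2 0.44, SE 0.13, limma adjusted p = 0.0197). The groups did not overlap, yet this call was lost in 7 alternatives, among them without the 0 h sample of rat 3 (adjusted p = 0.0709 by limma, the highest of all alternatives being 0.212). U2af1l4, a relative of U2af1 with a short C-terminal part, had mean signals of 254 at 0 h, 217 at 4 h and 369 at 48 h, and passed only at 48 h against 0 h (log2 0.54, SE 0.19, limma adjusted p = 0.0368). Its samples at these times overlapped, and the call was lost in 11 alternatives, among them without the sample of rat 1 or 3 at 0 h or of rat 1 or 2 at 48 h.

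The SF3 subunits are the part of the U2 snRNP that clamps the branch point, with Sf3b1 as the largest subunit and the one that holds the branch point adenosine. Sf3b1 signals were 2512, 2901 and 3362 in liver, 3304, 3623 and 3248 at 0 h, 6055, 5018 and 5868 at 4 h, 4333, 3781 and 3060 at 24 h and 3983, 3527 and 3539 at 48 h. The 4 h samples stood above all others, with a rise of 1.66-fold over 0 h (log2 0.73, SE 0.16, limma adjusted p = 0.00285). Sf3a1, Sf3a3 and Sf3b4, which help to bind the U2 snRNP to the intron, rose by 0.75, 0.63 and 0.50 (log2) at 4 h. Leaving out 1 sample ended the call of Sf3b4 (rat 1 or 2 at 0 h, or rat 2 at 4 h) and did not end those of Sf3a1 and Sf3a3. A different course was seen for Sf3b2 and Sf3b5, whose log2 changes at 4 h were -0.09 and -0.10 and did not pass. Sf3b2 signals were 1010, 1166 and 1014 at 4 h, 1427, 1477 and 1888 at 24 h and 1720, 1689 and 1747 at 48 h. Sf3b2 thus stood higher in every sample from 24 h on than in any earlier one, and Sf3b5 rose by 0.86 (log2, SE 0.23) from 4 to 24 h. Sf3a2, with the smallest range of group means of this class, passed in none of the comparisons and had means between 732 at 48 h and 988 at 4 h.

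Sm proteins form the ring around the small nuclear RNAs of most snRNPs. Snrpf, which encodes the ring protein SmF, had signals of 881, 860 and 901 in liver, 889, 771 and 801 at 0 h, 2183, 2072 and 1672 at 4 h, 1836, 2344 and 1641 at 24 h and 1854, 2489 and 1866 at 48 h. No sample of liver or 0 h reached a cultured one. The rise was 2.40-fold at 4 h (log2 1.26, SE 0.17, limma adjusted p = 8.97e-05) and 2.50-fold at 48 h against 0 h (log2 1.32, limma adjusted p = 3.53e-05), and both calls passed in every alternative run. Snrpd3, for SmD3, had signals of 1746, 1609 and 1963 at 0 h, 2822, 3175 and 3202 at 4 h, 3437, 4253 and 3384 at 24 h and 3290, 4060 and 3801 at 48 h, and its livers were at 1641, 868 and 1593. It rose by 0.79 (log2, SE 0.22) at 4 h and by 1.07 at 48 h against 0 h. Snrpd1, for SmD1, rose by 1.12 at 4 h (log2, SE 0.26, limma adjusted p = 0.00474), from 650, 429 and 375 to 1023, 1428 and 735, and did not pass at 48 h against 0 h. Snrpb, for SmB, rose by 0.51 (log2) at 4 h, a call lost without rat 3 at 0 h or rat 1 at 4 h.

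Snrpa encodes the U1 protein that binds a loop of the U1 RNA. Its signals were 253, 171 and 53.3 in liver, 225, 119 and 130 at 0 h and 514, 362 and 288 at 4 h. The groups of 0 h and 4 h did not overlap, and the difference was 2.49-fold (log2 1.32, SE 0.44, limma adjusted p = 0.0315). That call was lost without the sample of rat 2 or 3 at 0 h or of rat 1 or 2 at 4 h, with a highest adjusted p of 0.224 over all alternatives. At 48 h the signals were 355, 368 and 423, again above 0 h (log2 1.33, limma adjusted p = 0.0261), a call also lost without rat 2 or 3 at either time. Snrpb2, for the U2 protein B″, passed only at 48 h, by 0.62 (log2) against 0 h, and that call was lost without rat 1 at 0 h or rat 1 or 2 at 48 h. Snrpe, for SmE, had the smallest range of group means of the class, with means of 7041 in liver, 7004 at 0 h, 7020 at 4 h, 8363 at 24 h and 8417 at 48 h, and passed in no comparison.

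Several of the Prpf factors, a class made by symbol, belong to the tri-snRNP or to the complexes that activate it. Prpf19, a ubiquitin ligase and the core of the Prp19 complex, had signals of 1863, 1450 and 1284 in liver, 1775, 1160 and 1349 at 0 h, 4566, 4475 and 4084 at 4 h, 2599, 2193 and 2460 at 24 h and 2308, 2080 and 2130 at 48 h. The lowest sample at 4 h, 4084, was above the highest of all others, 2599. The rise was 3.11-fold (log2 1.64, SE 0.18, limma adjusted p = 1.39e-05), the largest of all 59 members. Prpf3, of the U4/U6 snRNP, rose by 0.71 (log2, SE 0.17, limma adjusted p = 0.00479) at 4 h, from 535, 533 and 496 to 946, 763 and 858. The other 9 Prpf genes did not pass at 4 h, among them Prpf8, the large protein at the catalytic centre, with signals of 3014, 3392 and 2974 at 0 h and 2851, 2696 and 2720 at 4 h.

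**Figure D2:**
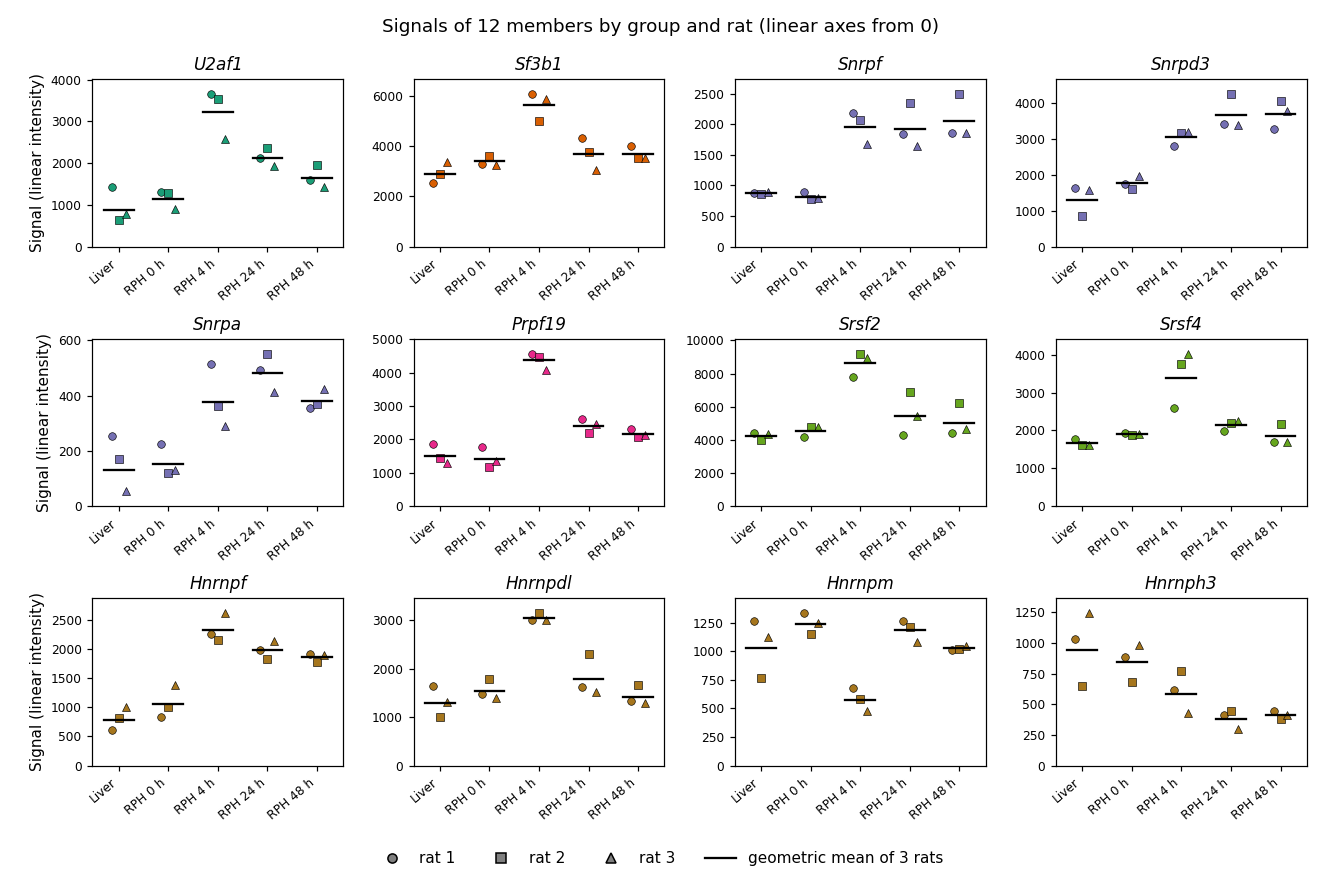
Signals of 12 members in each sample (linear intensity, axes from 0), with 1 symbol per rat and a bar for the geometric mean of the 3 rats. U2af1, Sf3b1, Prpf19, Srsf2, Srsf4 and Hnrnpdl peak at 4 h, Snrpf, Snrpd3, Snrpa and Hnrnpf stay above 0 h to 48 h, Hnrnpm is lowest at 4 h and Hnrnph3 is lower at 48 h than in liver.

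SR proteins bind exonic enhancers through their RNA recognition motifs. Srsf2, also called SC35, had signals of 4424, 4010 and 4321 in liver, 4145, 4744 and 4801 at 0 h, 7795, 9183 and 8954 at 4 h, 4266, 6878 and 5424 at 24 h and 4424, 6221 and 4651 at 48 h. The 4 h samples were the highest, and the rise over 0 h was 1.89-fold (log2 0.92, SE 0.18, limma adjusted p = 0.00154). Srsf4 rose by 0.83 (log2, SE 0.17, limma adjusted p = 0.00171), from 1925, 1887 and 1907 at 0 h to 2589, 3758 and 4020 at 4 h. The probe set annotated to Srsf7-ps4, a pseudogene of Srsf7, rose by 1.45 (log2, SE 0.32), from 112, 74.5 and 85.1 to 385, 209 and 181. Its assignment is uncertain, since a pseudogene shares sequence with its parent gene. It was above the array median on only 15 of the 43 arrays, and its means of 89.1 at 0 h, 77.2 at 24 h and 76.4 at 48 h were near or under the array medians, so its folds are not exact. The probe set of Srsf7 itself, above the median on 14 arrays, had means of 88.3 at 0 h and 83.7 at 4 h and did not pass. Srsf5, whose signals were 3851, 3844 and 3145 at 0 h and 2996, 2860 and 2724 at 4 h, did not pass at 4 h either. Srsf1 had means of 2325 and 2458, and Srsf11, with the smallest range of group means of the class, of 1813 and 2119, and neither passed.

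Among hnRNP proteins, which coat nascent transcripts, Hnrnpf encodes a protein that binds runs of G. Its signals were 602, 809 and 999 in liver, 833, 1009 and 1376 at 0 h, 2249, 2153 and 2605 at 4 h, 1978, 1823 and 2132 at 24 h and 1903, 1767 and 1892 at 48 h. Every cultured sample lay above those of liver and 0 h, with a rise of 2.22-fold at 4 h (log2 1.15, SE 0.20, limma adjusted p = 0.000696). Its relative Hnrnph1 rose by 0.88 (log2, SE 0.17), from 3545, 2255 and 2931 to 5432, 5171 and 5144. Hnrnpdl, related to the AU-rich element binding protein Hnrnpd, rose by 0.98 (log2, SE 0.20), from 1475, 1784 and 1386 to 3005, 3141 and 2996. Hnrnpu, the nuclear scaffold protein, rose by 0.88 and Hnrnpab, related to Hnrnpd, by 0.86, its 4 h samples at 12852, 10074 and 11555 against 7008, 5016 and 7137 at 0 h. Hnrnpc, which binds runs of U, rose by 0.59, a call lost without rat 1 at 0 h.

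Hnrnpm, a protein that binds GU-rich sequences, went the other way. Its signals were 1263, 766 and 1123 in liver, 1330, 1152 and 1242 at 0 h, 677, 578 and 480 at 4 h, 1263, 1215 and 1078 at 24 h and 1012, 1023 and 1044 at 48 h. No 4 h sample reached any sample of another group. The fall at 4 h was 2.16-fold (log2 -1.11, SE 0.18, limma adjusted p = 0.000413). Hnrnpll, known for its part in splicing in lymphocytes, fell by 0.63 on the log2 scale (SE 0.17, limma adjusted p = 0.0111), from 738, 879 and 714 to 549, 530 and 433. Its call was lost when each array was centred on its median (adjusted p = 0.0706 by limma, the highest of all alternatives being 0.0847).

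**Figure D3:**
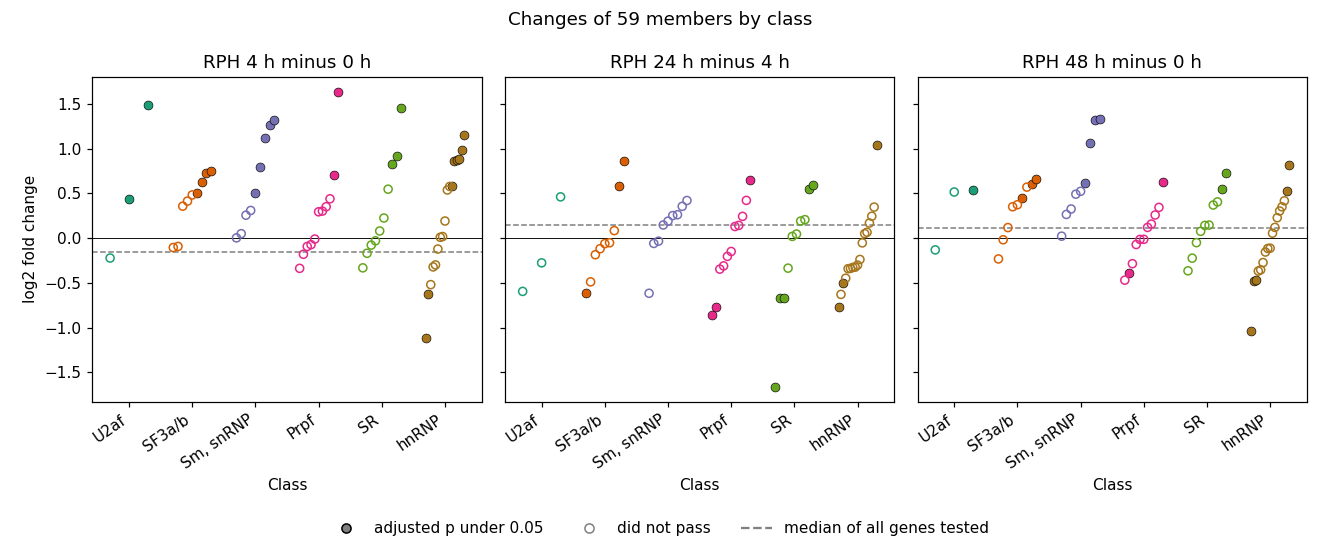
The log2 fold change of each of the 59 tested members by class, for RPH 4 h against 0 h, 24 h against 4 h and 48 h against 0 h. Filled points passed (adjusted p under 0.05), open points did not, and the dashed line is the median of all genes tested. At 4 h the members that passed lie above 0 apart from 2 hnRNP genes, and at 24 h against 4 h they lie on both sides.

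From 4 to 24 h, the first day after the serum was withdrawn, 6 members rose and 8 fell, where 26.3% of all genes tested rose and 13.5% fell. The median of the members was -0.05 (log2) and that of all genes 0.14. The 8 that fell were all among the 22 that had risen at 4 h, Prpf19 (log2 -0.86, SE 0.18, limma adjusted p = 0.00178), Prpf3 (-0.76), Hnrnpdl (-0.77), Srsf2 (-0.67), Srsf4 (-0.67), Sf3b1 (-0.61), Hnrnph1 (-0.50) and the dim probe set of Srsf7-ps4 (-1.66). Of the members up at 4 h these are 36.4%, and 35.7% of all genes up at 4 h fell likewise. Since both comparisons share the 4 h samples, the values are given side by side only. Hnrnpm rose by 1.05 (log2, SE 0.18, limma adjusted p = 0.000613), back to within its range at 0 h in 2 of 3 rats. Srsf5, Srsf9, Sf3b2, Sf3b5 and Prpf6 rose by between 0.55 and 0.86. None of the Sm and other snRNP genes and none of U2 auxiliary factor passed, the smallest adjusted p by limma being 0.0804 and 0.0752. With the rat as a block, U2af1 (limma adjusted p = 0.0490) and U2af1l4 (0.0162) did pass, and so did Snrpd1 with quantile normalization and without the 4 h sample of rat 3 (0.0260). The count of 14 went to 9 (3 up and 6 down) with arrays centred on the median, to 7 without rat 1 and to 4 without rat 3. Over all genes tested the count went from 4242 to 3489, 3077 and 2488 in these runs. The calls of Hnrnpm and Prpf19 passed in every alternative run. That of Srsf7-ps4 passed wherever it was tested, but a filter at 50% of the arrays left its probe set out. The calls of Srsf5, Srsf9 and Hnrnph1 were lost without any of several single samples and that of Srsf2 without the 24 h sample of rat 1.

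Between 24 h and 48 h none of the members passed in limma (smallest adjusted p 0.142), and 7 had an unadjusted p under 0.05. Of all genes tested, 2.51% rose and 1.78% fell. The log2 fold changes of the members lay between -0.63 and 0.49, and each alternative setting also called 0.

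Over the whole time in culture, 48 h against 0 h, 13 members rose and 4 fell, where 26.6% of all genes tested rose and 17.5% fell. The median of the members was 0.16 (log2), beside 0.12 for all genes. The share of members that rose, 22.0%, was under that of all genes. Of the 22 genes up at 4 h, 8 also passed as higher at 48 h and 14 did not pass there. These 8 are 36.4% of the members up at 4 h, and the share was 54.5% for all genes up at 4 h. The rises were 4 of 9 Sm and other snRNP genes (Snrpa 1.33, Snrpf 1.32, Snrpd3 1.07 and Snrpb2 0.62, log2), 3 of 9 SF3 subunits (Sf3b4 0.66, Sf3b2 0.60 and Sf3a3 0.45), Srsf6 (0.73) and Srsf9 (0.54), Hnrnpf (0.82) and Hnrnph1 (0.53), Prpf19 (0.63) and U2af1l4 (0.54). Hnrnpf and Prpf19 at 48 h were still 1.77-fold and 1.54-fold above 0 h. The falls were Hnrnph3 (log2 -1.04), Hnrnpll (-0.48), Hnrnpa0 (-0.47) and Prpf8 (-0.39, SE 0.13, limma adjusted p = 0.0240), the last with signals of 2549, 2231 and 2394 against 3014, 3392 and 2974 at 0 h. These groups of Prpf8 did not overlap, and the call was lost in 8 alternatives, among them without rat 2 at 0 h or rat 2 or 3 at 48 h.

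Hnrnph3, the third gene of the Hnrnph and Hnrnpf family described here, had signals of 1034, 647 and 1240 in liver, 883, 684 and 983 at 0 h, 616, 770 and 425 at 4 h, 412, 448 and 296 at 24 h and 447, 377 and 408 at 48 h. Its 48 h samples lay below all of liver and 0 h, while Hnrnpf was higher and Hnrnph3 lower at 48 h than at 0 h within the same cultures. The fall at 48 h was 2.05-fold against 0 h (SE 0.27 on the log2 scale, limma adjusted p = 0.00678), a call lost without rat 1 (0.0768). The second probe set of Hnrnph3 was at -0.25 and did not pass, and the mean of both was at -0.64.

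The count at 48 h against 0 h depended on the samples. It was 17 with all of them, 8, 3 and 10 without rat 1, 2 or 3, and 10 without the 48 h sample of rat 2. It was also 9 (8 up and 1 down) with arrays centred on the median and 9 with only these groups in the fit. Over all genes tested the counts, in the same order, were 4695, 3501, 3126, 3501, 3936, 4054 and 4094. Snrpf and Snrpd3 passed in every alternative run. The calls of Srsf6, Srsf9, Hnrnpa0, Hnrnpll, Hnrnph1, Sf3a3 and Prpf19 were each lost without at least 1 single sample, and that of Srsf6 rested on groups that overlapped.

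Against liver, 48 h of culture set apart 26 members, 21 higher and 5 lower, where 25.4% of all genes tested were higher and 22.6% lower. The median of the members was 0.25 (log2) and that of all genes 0.04. Higher were 5 of 9 Sm and other snRNP genes, 5 of 9 SF3 subunits, 6 of 17 hnRNP genes, 3 of 10 SR genes, Prpf19 and U2af1. The largest were Snrpa (log2 1.53), Snrpd3 (1.49, SE 0.22, limma adjusted p = 9.21e-05), Hnrnpf (1.24) and Snrpf (1.22). The place of Snrpa rested on the liver of rat 3, and it was at 0.87 without that sample, and its call was lost without rat 2 or rat 3 in all groups. The 5 lower were Hnrnph3 (-1.20), Srsf7 (-0.89), Prpf38b (-0.57), Hnrnpa0 (-0.45) and U2af2 (-0.38). Without the liver of rat 2 Srsf7 was at -0.55 and without that of rat 1 Prpf38b at -0.35, and neither passed. The Srsf7 means in RPH, between 66.4 and 88.3, were near or under the array medians, so its fold is not exact. The direction of this comparison leans on the scaling, because median centring of the arrays took the value for all genes from 0.04 to 0.43 (log2) here, and from -0.08 to 0.30 at 0 h against liver. Of the members called, 80.8% were higher as deposited, 96.7% (29 up and 1 down) with centring and 65.4% (17 and 9) with quantile normalization. Of all genes called, 52.93%, 74.97% and 53.99% were higher, in the same order. U2af2 went to 0.02 with centring. At 48 h against 0 h the shares of members were 76.5%, 88.9% and 70.6%. Those of all genes called were 60.4%, 59.4% and 54.6%.

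The count of 26 was 14, 8 and 10 without rat 1, 2 or 3. It was 20 and 14 without the liver of rat 1 or of rat 2. Without the 48 h sample of rat 1 or of rat 2 it was 17 and 14. Over all genes tested, 5103 passed with all samples and 4062, 3363 and 3816 without rat 1, 2 or 3. That number was 4585 and 4209 without the liver of rat 1 or of rat 2, and 4715 and 4164 without the 48 h sample of rat 1 or of rat 2. The calls of Hnrnpf, Hnrnph3, Sf3b2, Snrpd3 and Snrpf against liver passed in every alternative run. Without the livers of rats 1 and 2, the lone liver left, of rat 3, is assumed to vary like the other groups. The log2 values were then 2.84 for Snrpa, 1.22 for Snrpd3, 1.19 for Snrpf, 0.89 for Hnrnpf and -1.60 for Hnrnph3. For Snrpa the liver of rat 3 had a signal of 53.3, beside 253 and 171 in the other livers. That signal was under every array median of liver (108 or more), so this value is not exact. Among the members called, the groups overlapped for Hnrnpab, U2af1, Srsf7 and Prpf38b. How often called groups overlapped over all genes was not counted.

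Of the 59 tested members, 16 (27.1%, beside 26.6% of all genes tested) passed in none of the 6 comparisons, Hnrnpa1, Hnrnpa2b1, Hnrnpd, Hnrnpl, Hnrnpul1, Prpf18, Prpf38a, Prpf39, Prpf4, Prpf40b, Prpf4b, Sf3a2, Sf3b3, Snrpa1, Snrpe and Srsf11. Of these, 10 passed in at least 1 comparison under some alternative, such as Hnrnpd at 4 h against 0 h without the 0 h sample of rat 3 (limma adjusted p = 0.00920). The like number over all genes was not counted. Of 20 members with more than 1 probe set past the filter, 2 had probe sets that passed in opposite directions at 48 h against liver. The probe set that stands for Srsf1, the archetypal SR protein, had means of 1871 in liver, 2325 at 0 h, 2458 at 4 h, 2806 at 24 h and 3006 at 48 h. The second probe set of Srsf1 had means of 1180, 1211, 1158, 423 and 449. The first was higher at 48 h than in liver (log2 0.68, SE 0.17) and the second lower (log2 -1.39, SE 0.20), with limma adjusted p = 0.00637 and 0.000127 over all probe sets. Hnrnpa2b1 had 4 probe sets, whose log2 changes at 48 h against liver ran from -1.28 to 1.09, while the one that stands for it, at means between 3504 and 4311, passed in no comparison. Hnrnpa1 had 3, and the one that stands for it was at -0.35 at 48 h against 0 h and did not pass, while the others rose by 1.06 and 1.42. For Hnrnpu the 3 probe sets had changes of 0.09, 0.88 and 1.72 at 4 h. Of the 3 probe sets of Srsf6, 1 passed as higher at 48 h against 0 h, with changes from -0.16 to 0.73. At 24 h against 4 h, 2 of them passed as lower, with changes from -0.88 to 0.02. Hnrnpdl and Sf3b1 each had 3 probe sets, of which 1 passed as higher at 4 h against 0 h. Their changes ran from 0.61 to 0.98 and from 0.31 to 0.73. At 48 h against 0 h, 1 probe set of Hnrnpdl passed as lower, with changes from -0.79 to -0.01. Which transcripts each probe set detects is not stated, and a level of 1 probe set is not set against that of another.

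**Figure D4:**
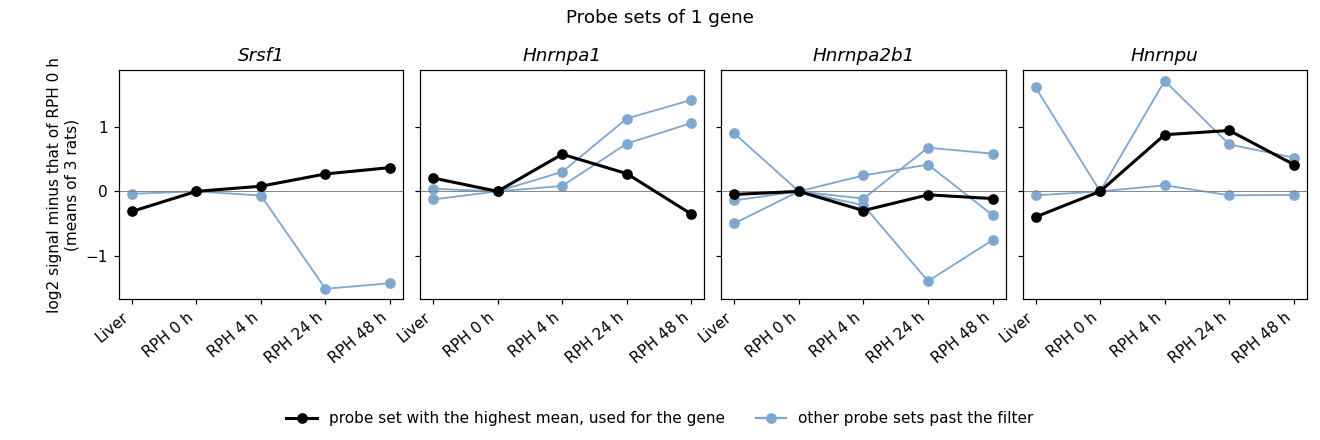
Group means of each probe set past the filter for 4 members, as log2 signal minus that of the same probe set at RPH 0 h (means of 3 rats), with the probe set that stands for the gene in black. For Srsf1 the lines part between 4 and 24 h, and for Hnrnpa1 the black line ends below 0 while the other lines end above 1.

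Other genes of the pathway were described by lists that hold no member, beside 16.3% of all genes up and 22.7% down at 4 h and 26.6% up and 17.5% down at 48 h. Of 15 genes for snRNP assembly, 7 rose and 1 fell at 4 h and 9 rose and 0 fell at 48 h against 0 h, with medians of 0.43 and 0.60 (log2) and shares up of 46.7% and 60%. Wdr77, a subunit of the methylosome that modifies Sm proteins, rose by 2.00 (SE 0.16) at 4 h, and Smn1, which loads the Sm ring, by 1.42 (SE 0.13), from 428 to 1144. Gemin7 and Gemin8, partners of Smn1, were 1.30 and 1.15 higher at 48 h than at 0 h. Of 27 spliceosome helicases and Prp19-related genes, 11 rose (40.7%) and 1 fell at 4 h, and 9 rose (33.3%) and 1 fell at 48 h. Ddx39a, a helicase of messenger RNA export, rose by 1.46, Dhx15, which takes the spliceosome apart, by 1.12 and Plrg1, a partner of Prpf19, by 0.89. Of 7 tested genes of the exon junction complex and nonsense-mediated decay, 3 rose (42.9%) and 0 fell at each time, Magoh by 1.03, Smg5 by 0.78 and Eif4a3 by 0.75 at 4 h.

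Of 19 other snRNP and Lsm genes, 3 rose (15.8%) and 0 fell at 4 h and 3 rose and 2 fell at 48 h, with Snrnp40 at 0.79 at 4 h and Snrnp25, of the minor spliceosome, at -2.04 at 48 h. Of 46 other splicing regulators, 6 rose (13%) and 5 fell at 4 h and 5 rose (10.9%) and 3 fell at 48 h, shares up that are under those of all genes. Rbm3, known as a cold-induced RNA-binding protein, rose from 976 at 0 h to 2056 at 4 h and 4455 at 48 h (log2 1.08 and 2.19), and Sfpq and Tardbp rose by 1.04 and 1.00 at 4 h. Of 8 tested genes for SR protein kinases and import, 1 rose (12.5%) and 1 fell at 4 h and 3 rose (37.5%) and 2 fell at 48 h. The kinase Srpk1 rose by 1.18 (SE 0.26, limma adjusted p = 0.00282), from 211 to 477, while Clk1, a kinase of SR proteins in the nucleus, fell by 0.86 on the log2 scale (SE 0.19, limma adjusted p = 0.00338), from 3357 to 1848.

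**Figure D5:**
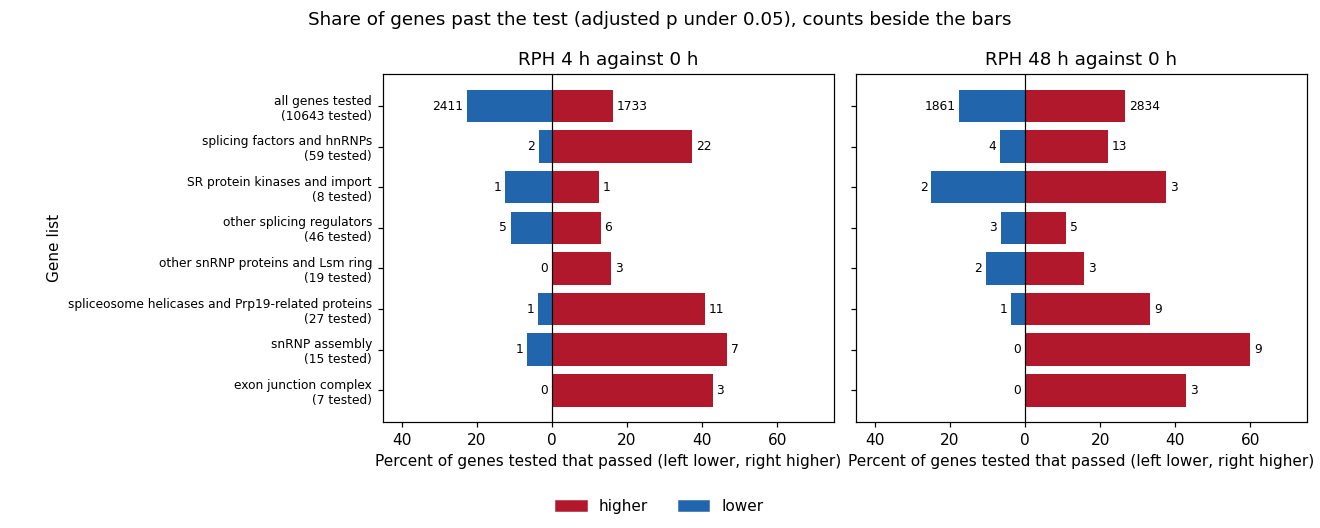
Share of the tested genes of each list that passed as higher (right, red) or lower (left, blue) at RPH 4 h and 48 h against 0 h, with the counts beside the bars. At 4 h the members, snRNP assembly, the helicases and the exon junction complex have at least 37.3% of their genes higher, beside 16.3% of all genes tested.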

How the data were processed

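RNA of 15 samples (3 rats in each of 5 groups) was hybridized to 43 Affymetrix RG230-2 arrays. The deposited intensity values are MAS5 signals, which the authors scaled so that every array has the same trimmed mean, 500. The methods name both the scanner software's MAS5 algorithm and the affy package of Bioconductor, and which of them made the deposited values is not settled. The number of arrays limits the precision.

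Probe sets that list 1 gene (20826 of 31099) were kept where the signal exceeded the median of its array in at least 10% of the arrays. Each gene was represented by its probe set with the highest mean, which left 10643 genes. Signals were put on the log2 scale with no offset, technical arrays were averaged per rat and group, and limma 3.58.1 (R 4.3.3) was fitted over all 15 samples with Benjamini-Hochberg adjustment over all genes. A member passed at an adjusted p under 0.05. Changes are log2 differences of group means, and folds are 2 to that power. The script was tested on simulated data.

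The members and lists were chosen with earlier results of these data known. Genes named are, per class and for 4 h against 0 h, 24 h against 4 h and 48 h against 0 h, up to 4 members with the largest change that passed, those with the highest mean and the smallest range, a few fixed genes, and up to 3 per other list and comparison. Hnrnpa0, Hnrnpc, Snrpb, Srsf7, Prpf38b and others named only in whole counts or against liver were added after their values were seen.

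Each rat gave a sample to every group, so the rat pairs the samples. Deviations from group means had a median r of 0.34 in 30 pairs of samples from the same rat and -0.18 in 60 pairs from different rats. Deviations cancel out within a group, so the second value largely follows from the first. Alternatives were the rat as a replicate block, quantile normalization, median centring, an offset of 32, other filters, the mean of the probe sets, other uses of technical arrays, only the groups compared, a trended prior and leaving out rats or samples. Fitting each probe set on its own and leaving out the livers of rats 1 and 2 together were chosen after seeing the data. Promoters came from RefSeq (GRCr8).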

Additional observations from a re-analysis of the deposited data

Results flagged for a closer look

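There were 9 members that passed in opposite directions at 4 h against 0 h and at 24 h against 4 h, 15.3% of those tested beside 16.9% of all genes tested. These comparisons share the 4 h samples, and the difference between them was not tested. The log2 fold changes at 24 h against 4 h were -0.77 for Hnrnpdl, -0.50 for Hnrnph1, -0.86 for Prpf19, -0.76 for Prpf3, -0.61 for Sf3b1, -0.67 for Srsf2, -0.67 for Srsf4 and -1.66 for the probe set of Srsf7-ps4, each after a rise at 4 h. Hnrnpm had the opposite order, a fall at 4 h and then a rise of 1.05.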

How the results depend on the processing

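With the rat as a replicate block, 29, 20, 23 and 32 members passed at 4 h against 0 h, 24 h against 4 h, 48 h against 0 h and 48 h against liver, in place of 24, 14, 17 and 26, all of the latter among them, and 0 in the other comparisons. Over all genes tested, 4956, 5001, 5385 and 5872 passed with the block, in place of 4144, 4242, 4695 and 5103. With median centring 9 passed at 24 h against 4 h and 9 at 48 h against 0 h, and with only the groups compared in the fit 9 at 48 h against 0 h. Leaving out a rat or a sample gave between 16 and 26 at 4 h against 0 h, 4 and 13 at 24 h against 4 h, 3 and 15 at 48 h against 0 h and 8 and 20 at 48 h against liver, where 10 passed without the livers of rats 1 and 2 together. Without a rat or a sample, between 2633 and 3612 of all genes tested passed at 4 h against 0 h. The range over all genes was 2488 to 3794 at 24 h against 4 h and 3126 to 4282 at 48 h against 0 h. It was 3363 to 4715 at 48 h against liver. The mean of the probe sets turned the direction of Srsf1 at 24 h against 4 h (-0.63), 48 h against 0 h (-0.53) and 48 h against liver (-0.35), of Hnrnpa1 at 48 h against 0 h (0.71) and liver (0.67), and at 48 h against liver of Hnrnpa3 (-0.043), Hnrnpu (-0.091) and Prpf38b (0.043). Median centring turned U2af2 at 48 h against liver (0.016). These are the turns of values that passed with the main settings or under the alternative. A further 431 of 7186 values turned without passing in either, among them Hnrnpa1 at 24 h against 4 h. The cause was not tested. Of the 81 values called with the main settings, 20 passed under every alternative that tested them. These include Srsf7-ps4 at 24 h against 4 h, which the filter at 50% of the arrays did not test. Over 1643 values of the 81 under alternatives, 1294 kept their call, 344 kept only the direction and 5 turned. Calls kept or lost under every alternative were not counted over all genes. Signals near background, as for Srsf3, Snrpn, Srsf7 and Srsf7-ps4, limit what can be seen.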
